A study of Mus musculus with 6 samples.

Results

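The genes examined here encode the intraflagellar transport (IFT) particles, the BBSome, the cilium's motors and small GTPases, and ciliary regulators of Hedgehog signalling. They were taken by name from the deposited raw count table, as every symbol made of *Ift* or *Bbs* and a number, plus 16 named genes (*Dync2h1*, *Dync2li1*, *Kif3a*, *Kif3b*, *Kif7*, *Kif17*, *Kifap3*, *Arl13b*, *Arl6*, *Arl3*, *Evc*, *Evc2*, *Wdr19*, *Wdr35*, *Tulp3* and *Gpr161*). The rule found 36 of the 23159 genes of the table, 12 of them *Ift* genes and 8 of them *Bbs* genes.

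The study sorted label-retaining chondrocytes (LRCs) and non-LRCs from the growth plates of the distal femur and proximal tibia of Col2-Q mice, and compared their RNA. The comparison used here asks whether the genes that build and run the primary cilium differ between the slow-cycling and the faster-cycling cells. There were 3 independent experiments, each with 1 LRC library and 1 non-LRC library made from pooled cells of several littermates, so that *n*=3 libraries per group. All mice were homozygous for *Col2a1*-tTA at *Peli2*, for TRE-H2B-GFP at *Col1a1*, for *Col2a1*-creER and for tdTomato at R26R, received doxycycline from postnatal day (P) 21 to P49 and tamoxifen at P46 and P47, and were 49 days old. Doxycycline stops the synthesis of H2B-GFP in this Tet-Off system, so dividing cells dilute the label. Both sorted groups were negative for CD45 and positive for tdTomato, and they differed in the H2B-GFP gate: the brightest cells were the LRCs and cells of middle to low brightness the non-LRCs. The transactivator and the recombinase both follow *Col2a1*, and tamoxifen activated the recombinase at P46 and P47. Cells without its activity at about that time would be tdTomato-negative. The paper's sorting methods name the CD45 and GFP gates and do not mention tdTomato. It also saw weak H2B-GFP in osteoblasts and osteocytes of mice that lacked the transactivator, but almost none by flow cytometry. About 10000 LRCs or 50000 non-LRCs were used per library.

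The primary cilium is a single, non-motile antenna built on the older centriole of a resting cell and taken down before mitosis. Kinesin-2 carries IFT-B and IFT-A particles to its tip, dynein-2 brings them back, and the BBSome rides on them to move membrane receptors. In the growth plate the cilium transmits the response to Indian hedgehog and helps to orient the columns of chondrocytes, and inherited loss of many of these genes gives short limbs or a narrow chest.

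Total counts were between 18943789 and 129559872 per library. The smallest, the LRC library of experiment 2, stood apart: it lacked counts for 1731 of the 13728 genes tested, where each other library lacked them for 4 to 365, and 1 count in it was worth 0.0478 CPM (counts scaled to the TMM-normalised library total). Of the chondrocyte markers all 9 were measured, and *Col2a1* took 7.003% to 17.4% of the counts of a library. Their summed level was 80453 to 223394 CPM in LRCs and 132628 to 229862 CPM in non-LRCs. Other markers also moved between the gates. The 5 resting zone markers summed to 1685 to 2013 CPM in LRCs and 358 to 497 CPM in non-LRCs. The 8 superficial articular and synovial markers summed to 9040 to 11624 CPM and 3869 to 9696 CPM, the 9 hypertrophic markers to 985 to 2045 CPM and 1434 to 3692 CPM, and the 15 cell cycle genes to 306 to 706 CPM and 494 to 929 CPM. By edgeR 3 of the 5 resting zone and 4 of the 8 superficial markers were called higher in LRCs. It called 3 of the 9 hypertrophic markers lower, and 1.28% of all genes. None of the 9 chondrocyte markers or 15 cell cycle genes was called by edgeR. DESeq2 called 3 of those 9 chondrocyte markers lower, against 6.15% of all genes. The superficial list holds *Prg4*, whose RNA the paper also detected in the resting zone, more faintly than at the articular surface. The paper reports that nearly all tdTomato-positive cells released by its digestion came from the growth plate. Of the endothelial markers *Cdh5*, *Kdr* and *Emcn* were at 0 in all 6 libraries, and the 5 together summed to at most 0.681 CPM. Skeletal muscle markers summed to 6.04 to 11.0 CPM in LRCs and 9.17 to 14.7 CPM in non-LRCs. Of 9 leukocyte and erythroid markers 7 were in the table. They summed to 5.50 to 7.89 CPM in LRCs and 3.51 to 3.96 CPM in non-LRCs, without overlap. Of these 2 lists 4 and 5 genes were tested, and edgeR called none. The 8 osteoblast markers summed to 1382 to 3146 CPM in LRCs and 971 to 2167 CPM in non-LRCs. Of the 7 tested, edgeR called 1 higher in LRCs (*Col1a1*), where it called 1.28% of all genes. DESeq2 called the same 1 higher and 3 lower (*Bglap*, *Bglap2* and *Sp7*), where it called 12.3% of all genes. *Sost* was at 0 in all 6 libraries. The part of these cell mixtures in the values below was not tested. In bulk libraries, fewer cells that express a gene and less RNA per cell cannot be told apart.

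Genes of the motile cilium of multiciliated epithelia served as markers of the other kind of cilium. Of 20 such genes 15 were in the table and 10 passed the filter on low counts, and the 15 summed to 24.9 to 30.8 CPM in LRCs and 26.5 to 41.5 CPM in non-LRCs. This list shares *Tppp3* with the superficial articular and synovial markers, and *Dynlrb2* with the further dynein-2 subunits below. *Hydin* and *Sntn* were at 0 in every library, and *Foxj1*, the master factor of motile cilia, was between 0 and 1.56 CPM.

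Nearly all the cilium genes were transcribed in both cell groups. The 36 genes together summed to 544, 458 and 661 CPM in LRCs (experiments 1, 2 and 3 in order, as in all lists that follow) and to 582, 656 and 728 CPM in non-LRCs. The LRC sum was the lower one in each experiment, and the ranges of the 2 groups overlapped. The log2 ratio of the sums averaged -0.25 ± 0.23 (SD, *n*=3), and without experiment 2 it was -0.12.

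Compared per kilobase of exon, the most abundant was *Ift20*, an IFT-B protein that also sits at the Golgi, at 31.4 ± 11.2 CPM per kilobase in LRCs and 55.2 ± 13.7 in non-LRCs (mean ± SD, *n*=3 each). Next came *Arl13b*, the membrane GTPase used to mark cilia, at 11.6 ± 3.50 and 12.7 ± 1.48 CPM per kilobase, and then *Ift57* at 8.82 ± 1.66 and 10.8 ± 1.78. The mean levels of *Ift57* and *Arl13b* in LRCs differed by less than the larger of their SDs, but *Arl13b* lay above *Ift57* in every library. *Ift20* lay above both in every library. The median of the 36 genes was 2.65 CPM per kilobase in LRCs and 2.43 in non-LRCs.

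**Figure D1:**
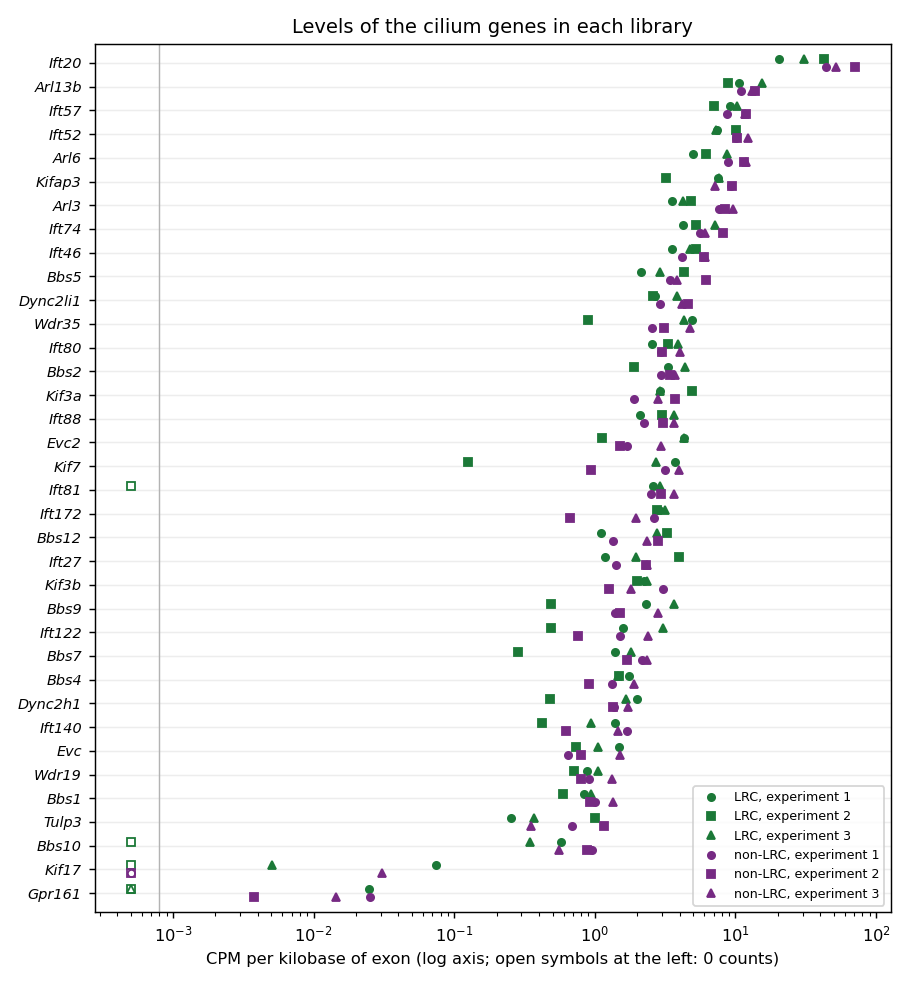
CPM per kilobase of exon (log axis) of the 36 cilium genes in each of the 6 libraries, ordered by mean level, with circles, squares and triangles for experiments 1, 2 and 3, green for LRCs, purple for non-LRCs, and open symbols at the left for 0 counts. *Ift20* is highest in every library, *Kif17* and *Gpr161* are lowest, and the green squares of experiment 2 lie far left for *Kif7*, *Ift81* and *Bbs10*.

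At the low end, *Gpr161* and *Kif17* did not pass the filter on low counts and were not tested. *Gpr161* encodes a ciliary receptor that restrains Hedgehog signalling, and it had 20, 0 and 0 counts in LRCs and 18, 1 and 5 in non-LRCs. *Kif17*, a second type of kinesin-2, had 40, 0 and 1 counts in LRCs and 0, 0 and 7 in non-LRCs. Most *Kif17* counts thus came from 1 library. At this depth no difference of either gene was detectable. Per kilobase of exon, the lowest genes that were tested were *Bbs10*, *Tulp3* and *Bbs1*. They were at 0.307, 0.540 and 0.792 CPM per kilobase in LRCs and 0.797, 0.732 and 1.09 in non-LRCs. Without the length, *Bbs1* (6.08 CPM in LRCs and 8.37 in non-LRCs) lay above *Bbs12* (5.80 and 5.29).

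LRCs were then compared with non-LRCs by edgeR's quasi-likelihood test across all 13728 genes with a block for the experiment number, as the study also paired its libraries. A gene was called when its p, adjusted by Benjamini-Hochberg, lay below 0.05. A positive log2 fold change means more in LRCs. None of the 34 cilium genes tested was called, where 1.28% of all genes tested were. At an unadjusted p below 0.05 there were 3, *Ift20*, *Arl3* and *Arl6*, all lower in LRCs, which is 8.82% of the 34, against 18.4% of all genes in either direction and 9.53% lower in LRCs. DESeq2 with the same block called 2, *Ift20* and *Arl3*, or 5.88%, both lower in LRCs, against 12.3% of all genes in either direction and 6.15% lower in LRCs. limma-voom called the same 2, against 9.91% of all genes. By each of these counts the share of cilium genes past the threshold was near or under that of all genes. The fit gave 95% intervals that lay wholly within a fold change of 2 for 11 of the 34 (32.4%), and for all genes tested that share was 35.0%.

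The signs of the differences leaned to lower levels in LRCs. The fitted log2 fold change was below 0 in 26 of the 34 genes (76.5%), and in 56.0% of all genes tested. Taking each experiment by itself, 21, 27 and 22 of the 34 were lower in LRCs in experiments 1, 2 and 3, beside 6983, 7699 and 6905 of the 13728 genes tested. In all 3 experiments the same 13 were lower (38.2%, where 26.1% of all genes tested were) and 2 were higher (5.88%, where 20.4% were). A sign counted here whatever its size, and *Ift88* was among the 13 with log2 differences of only -0.115, -0.016 and -0.0011. The LRC libraries lay wholly below the non-LRC libraries for 4 genes (11.8%, with 10.3% among all genes tested), which were *Ift20*, *Arl3*, *Arl6* and *Ift52*. They lay wholly above for 1, *Ift172* (2.94%, with 8.41% among all genes tested). The median fitted log2 fold change was -0.28, that of all genes tested was -0.10, and without experiment 2 the medians were -0.12 and -0.02. These are descriptions with no test of the group as a whole.

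**Figure D2:**
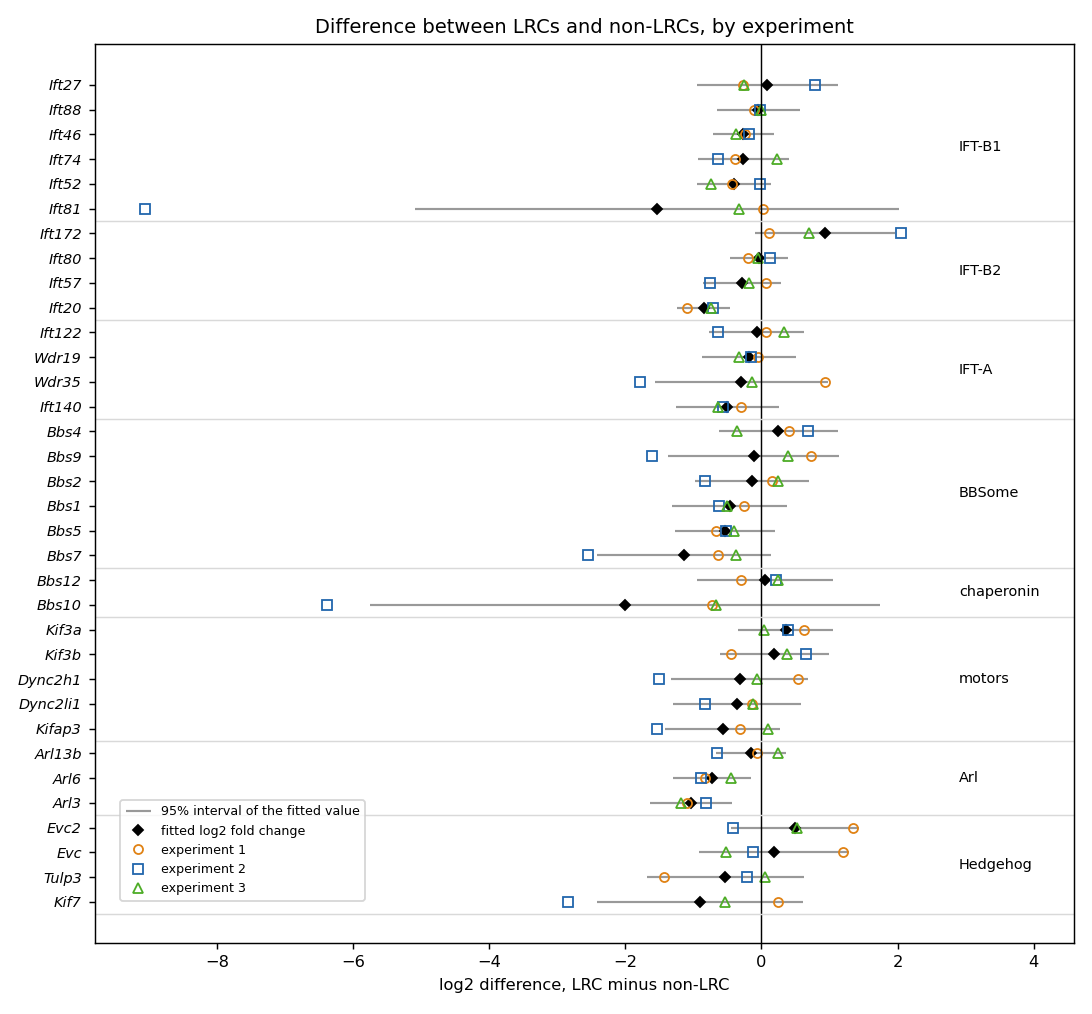
Difference in log2 level between LRCs and non-LRCs for the 34 cilium genes tested, grouped by role, with open circles, squares and triangles for experiments 1, 2 and 3, black diamonds for the fitted log2 fold change of edgeR and grey bars for its 95% interval. *Ift20*, *Arl3* and *Arl6* have intervals wholly below 0 (unadjusted), and the blue squares of experiment 2 lie farthest out for *Ift81*, *Bbs10*, *Kif7* and *Bbs7*.

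The IFT-B particle, which carries tubulin outward, held both the lower gene and the higher gene with the smallest p. *Ift20* was at 31.4, 65.3 and 46.9 CPM in LRCs and at 66.7, 107 and 78.7 CPM in non-LRCs. The highest LRC library lay just under the lowest non-LRC library, and the LRC value was the lower one of each pair. The fitted level in LRCs was 0.554 of that in non-LRCs (95% interval 0.422 to 0.729, log2 fold change -0.85 ± 0.16 SE), with an adjusted p of 0.0718 in edgeR and 0.000526 in DESeq2 (over all settings tried, 0.000526 to 0.505). Without experiment 2 edgeR called *Ift20* and *Arl3*, 2 of 36 genes then tested (5.56%), where 5.37% of all genes were called.

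*Ift172*, the largest IFT-B subunit, which acts where the train turns around at the tip, was at 18.8, 18.4 and 20.9 CPM in LRCs and at 17.4, 4.40 and 12.9 CPM in non-LRCs. The LRC libraries were even and all above the non-LRC ones, but the non-LRC library of experiment 2 was far under the other two of its group. The log2 fold change was 0.94 ± 0.42 (SE), with an edgeR adjusted p of 0.312, and over the alternative settings it lay between 0.40 and 1.37. *Ift88* and *Ift80*, which are needed for cilium assembly and, in cartilage, for normal growth, were close in the 2 groups. *Ift88* was at 9.62, 14.0 and 16.8 CPM in LRCs and 10.4, 14.1 and 16.9 CPM in non-LRCs, for a log2 fold change of -0.04 (95% interval -0.66 to 0.57). *Ift80* was at 31.8, 41.0 and 48.3 CPM in LRCs and 36.6, 37.5 and 49.9 CPM in non-LRCs, for a log2 fold change of -0.04 (95% interval -0.47 to 0.38). For both, the libraries differed more between experiments than within them.

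The other IFT-B subunits among the 36 genes were lower or near even. *Ift52*, in the core of the particle, was at 20.9, 28.1 and 20.4 CPM in LRCs and 28.2, 28.6 and 34.3 CPM in non-LRCs. Its groups did not overlap, though by a small margin, and its log2 fold change of -0.40 ± 0.22 (SE) had an edgeR adjusted p of 0.405 and was -0.21 without experiment 3. *Ift57* was at 26.1, 20.1 and 29.5 CPM in LRCs and 24.9, 34.0 and 33.4 CPM in non-LRCs, with overlap and a log2 fold change of -0.29 that became -0.055 without experiment 2. *Ift46*, *Ift74* and *Ift27* had log2 fold changes between -0.27 and 0.08.

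*Ift81*, the tubulin-binding partner of *Ift74*, showed how much a single library could weigh. It was at 15.03 and 17.04 CPM in LRCs of experiments 1 and 3 and at 14.7, 17.2 and 21.3 CPM in non-LRCs, but had 0 counts in the LRC library of experiment 2. At the level of the non-LRC library of the same experiment 360 counts would have been seen there, and a count of 0 allows up to 0.143 CPM, the value of 3 counts (counting error only). Of the 6470 genes with at least 10 CPM in each of the other 5 libraries, 6 (0.0927%) had no counts in that one. Its fitted log2 fold change of -1.53 had an interval from -5.09 to 2.03 and became -0.15 without experiment 2.

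**Figure D3:**
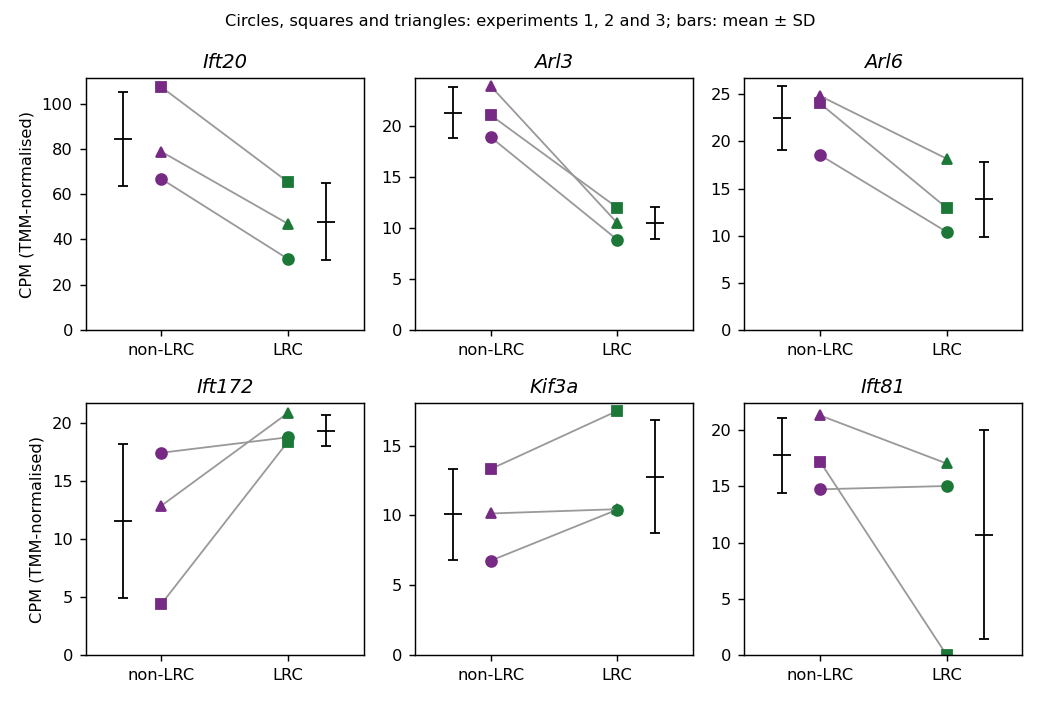
CPM (TMM-normalised, linear axis from 0) of 6 cilium genes in non-LRC (purple) and LRC (green) libraries, with a line joining the libraries of 1 experiment and bars for the mean ± SD (*n*=3). *Ift20*, *Arl3* and *Arl6* are lower in LRCs in all 3 pairs, *Ift172* and *Kif3a* are higher in LRCs in all 3, and *Ift81* is at 0 in 1 LRC library.

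The small GTPases of the cilium gave 2 of the 3 lowest p-values. *Arl3*, which releases lipid-modified cargo inside the cilium, was at 8.85, 12.0 and 10.5 CPM in LRCs and at 18.9, 21.1 and 23.9 CPM in non-LRCs. The groups were well apart, with no overlap. The fitted LRC level was 0.489 of the non-LRC level (95% interval 0.323 to 0.739, log2 fold change -1.03 ± 0.24 SE), with an adjusted p of 0.106 in edgeR and 0.00546 in DESeq2 (over all settings tried, 0.00546 to 0.460). *Arl6*, which brings the BBSome to the membrane, was at 10.4, 12.95 and 18.2 CPM in LRCs and 18.6, 24.0 and 24.8 CPM in non-LRCs. Its groups were separated by a narrow gap, and its log2 fold change was -0.72 ± 0.24 (SE), with an adjusted p of 0.187 in edgeR and 0.0662 in DESeq2 (over all settings tried, 0.0662 to 0.566). When GC content and length were corrected for, the value of *Arl6* was -0.31 (edgeR adjusted p 0.559). *Arl13b*, the exchange factor of *Arl3*, was at 53.5, 44.8 and 79.0 CPM in LRCs and 56.0, 70.4 and 67.0 CPM in non-LRCs. Its libraries overlapped, the log2 fold change was -0.16 (95% interval -0.67 to 0.36), and without experiment 2 it turned to 0.09.

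The BBSome sorts receptors into and out of the cilium. Of its 6 subunits measured, 5 had a fitted value below 0 and 3 (*Bbs1*, *Bbs5* and *Bbs7*) were lower in LRCs in all 3 experiments. *Bbs7* was at 7.48, 1.53 and 9.82 CPM in LRCs and 11.6, 9.11 and 12.7 CPM in non-LRCs, with the lowest value again in experiment 2. Its log2 fold change was -1.14 ± 0.52 (SE), with an edgeR adjusted p of 0.321, and without experiment 2 it was -0.50. *Bbs5* was at 5.20, 10.5 and 7.10 CPM in LRCs and 8.31, 15.1 and 9.36 CPM in non-LRCs. The shift of *Bbs5* was of like size in each pair (log2 differences of -0.67, -0.53 and -0.40), the groups overlapped, and the edgeR adjusted p was 0.410. Its log2 fold change was -0.53, and -0.13 with the correction for GC content and length. *Bbs1* was at 6.43, 4.54 and 7.26 CPM in LRCs and 7.72, 7.04 and 10.4 CPM in non-LRCs. *Bbs4* was the subunit of these 6 with a positive value, 0.25 ± 0.36 (SE), and *Bbs2* and *Bbs9* were at -0.13 and -0.11. *Bbs10* and *Bbs12* help to fold the BBSome subunits. *Bbs10* had 206, 0 and 45 counts in LRCs and 303, 102 and 84 in non-LRCs, so its difference in experiment 2 rests on no counts in the LRC library, and *Bbs12* had a log2 fold change of 0.05.

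IFT-A, the return particle, had 4 subunits among the 36 genes, all tested and none called by edgeR. All 4 had a fitted value below 0, where 56.0% of all genes tested did. Their median difference was 0.0085, -0.60 and -0.23 in experiments 1, 2 and 3. The median fitted value was -0.24, and 0.0047 without experiment 2. *Ift140* was at 11.6, 3.49 and 7.87 CPM in LRCs and 14.2, 5.18 and 12.2 CPM in non-LRCs. It was lower in each pair by log2 differences of -0.29, -0.57 and -0.64, its groups overlapped because both libraries of experiment 2 were low, and the edgeR adjusted p was 0.447. *Wdr19*, *Ift122* and *Wdr35* had log2 fold changes of -0.18, -0.07 and -0.29. *Wdr35* differed by 0.94, -1.79 and -0.14 in the 3 experiments.

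Among the motors, *Kif3a*, the kinesin-2 subunit whose loss in cartilage disturbs growth plate columns, was at 10.4, 17.5 and 10.4 CPM in LRCs and at 6.76, 13.3 and 10.1 CPM in non-LRCs. It was the higher one in LRCs in each pair, by log2 differences of 0.62, 0.39 and 0.04, but the groups overlapped and the edgeR adjusted p was 0.569. Its partners *Kif3b* and *Kifap3* had log2 fold changes of 0.19 and -0.57. *Kifap3* was at 29.9, 12.95 and 30.7 CPM in LRCs and 37.3, 37.7 and 28.6 CPM in non-LRCs, and most of its difference lay in experiment 2, without which it was -0.11. *Dync2h1*, the heavy chain of dynein-2 and a gene of short-rib disease, was at 32.5, 7.79 and 27.0 CPM in LRCs and 22.5, 22.2 and 28.3 CPM in non-LRCs. Here too the low value was that of experiment 2, and the log2 fold change of -0.32 turned to 0.24 without it. *Dync2li1*, its light intermediate chain, had a log2 fold change of -0.36.

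The genes that link the cilium to Hedgehog signalling had no common direction across experiments. *Evc2*, which with *Evc* forms the complex lost in Ellis-van Creveld syndrome, was at 25.3, 6.55 and 25.0 CPM in LRCs and 9.94, 8.77 and 17.4 CPM in non-LRCs. The LRC libraries of experiments 1 and 3 were the highest of all 6 and that of experiment 2 the lowest, and the log2 fold change was 0.50 ± 0.39 (SE; edgeR adjusted p 0.552). It was 0.053 without experiment 1, 0.94 without experiment 2 (edgeR adjusted p 0.0816) and 0.85 with limma-voom (adjusted p 0.0953). *Evc* was at 11.4, 5.69 and 8.08 CPM in LRCs and 4.95, 6.18 and 11.5 CPM in non-LRCs, with a log2 fold change of 0.18 and both signs among the pairs. *Kif7*, the kinesin that organises the ciliary tip and restrains Gli factors, was at 17.1, 0.574 and 12.4 CPM in LRCs and 14.5, 4.32 and 18.1 CPM in non-LRCs. Its value in the LRC library of experiment 2 stands for 12 counts, its log2 fold change of -0.91 had an interval from -2.42 to 0.61 and became -0.14 without experiment 2, and 19.1% of its exon bases lie opposite an antisense gene, whose reads cannot be told apart without the strand. *Tulp3*, the adaptor that brings receptors onto IFT-A, was at 2.35, 9.37 and 3.42 CPM in LRCs and 6.39, 10.8 and 3.30 CPM in non-LRCs. For *Tulp3* both libraries of experiment 2 were the highest of their group, and the log2 fold change of -0.53 became -0.084 without experiment 1.

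The LRC library of experiment 2 was below 0.5 of both other LRC libraries for 11 of the 34 genes (32.4%), and for 24.8% of all genes tested. These 11 were *Bbs7*, *Bbs9*, *Bbs10*, *Dync2h1*, *Evc2*, *Ift81*, *Ift122*, *Ift140*, *Kif7*, *Kifap3* and *Wdr35*. Neither *Ift20* (65.3 CPM, the highest LRC value) nor *Arl3* (12.0 CPM, likewise) was among them.

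The promoters were read for the motif of the Rfx factors, the transcription factors known for switching on ciliary genes. In the RefSeq table (GRCm38.p6, 250 bases before to 50 bases after each start) 32 of the 36 genes were found, with 34 promoters. The core site GTTGCC, on either strand, was in 14 of these 34 (41.2%) and in 12.5% of all 32851 promoters of the table. The paired form, GTTNCC and GGNAAC with 0 to 3 bases between them, was in 2 of the 34 (5.88%), those of *Bbs7* and *Ift57*, and in 0.804% of all promoters. A paired form that begins with GTTGCC counts as a core site too. The promoters of *Ift20* and *Arl3*, the members called by DESeq2, are printed with those of *Bbs7* and *Ift57*, so that a promoter without the motif can be set beside one with it. Capitals mark the core sites and the paired form. The windows are chr11:78536111-78536410 on the plus strand for *Ift20*, chr19:46573133-46573432 on the minus strand for *Arl3*, chr3:36613340-36613639 on the minus strand for *Bbs7* and chr16:49699044-49699343 on the plus strand for *Ift57*.
Ift20: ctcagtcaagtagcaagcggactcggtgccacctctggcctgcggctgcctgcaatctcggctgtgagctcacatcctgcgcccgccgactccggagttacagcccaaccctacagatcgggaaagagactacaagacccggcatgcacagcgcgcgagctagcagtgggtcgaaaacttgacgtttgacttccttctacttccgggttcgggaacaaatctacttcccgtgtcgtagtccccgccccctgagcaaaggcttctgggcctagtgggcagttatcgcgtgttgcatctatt
Arl3: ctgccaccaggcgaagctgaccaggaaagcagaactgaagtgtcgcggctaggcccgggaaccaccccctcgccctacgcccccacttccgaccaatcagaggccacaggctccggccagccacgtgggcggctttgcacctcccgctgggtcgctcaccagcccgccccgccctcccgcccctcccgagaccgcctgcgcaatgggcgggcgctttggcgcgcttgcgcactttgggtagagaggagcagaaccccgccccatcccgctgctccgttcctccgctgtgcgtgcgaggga
Bbs7: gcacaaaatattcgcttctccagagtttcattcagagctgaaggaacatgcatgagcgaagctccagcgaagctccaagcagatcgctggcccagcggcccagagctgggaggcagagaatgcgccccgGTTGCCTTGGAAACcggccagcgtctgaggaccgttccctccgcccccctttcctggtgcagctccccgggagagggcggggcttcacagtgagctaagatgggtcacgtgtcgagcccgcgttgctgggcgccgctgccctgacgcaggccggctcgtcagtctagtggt
Ift57: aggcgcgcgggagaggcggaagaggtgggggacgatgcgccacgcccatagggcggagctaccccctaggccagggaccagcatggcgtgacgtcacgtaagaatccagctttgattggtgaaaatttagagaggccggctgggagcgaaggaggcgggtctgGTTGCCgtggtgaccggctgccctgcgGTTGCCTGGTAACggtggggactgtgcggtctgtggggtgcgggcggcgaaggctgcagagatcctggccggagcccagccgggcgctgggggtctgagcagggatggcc
The paired form of *Bbs7* starts 121 bases before the start site, and the core site and the paired form of *Ift57* start 87 and 60 bases before it. Of the 32 genes with a promoter in the table, 14 (43.8%) have the core site and 18 do not. Of the 13 genes lower in LRCs in all 3 experiments 12 have a promoter there, 5 of them (41.7%) with the site (*Bbs1*, *Bbs5*, *Bbs7*, *Ift140* and *Ift88*) and 7 without it (*Arl3*, *Arl6*, *Bbs10*, *Ift20*, *Ift46*, *Ift52* and *Wdr19*). The 2 genes higher in all 3, *Ift172* and *Kif3a*, both have it. A match is a description of the letters and not a bound site.

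Other genes of the same machinery were taken from a list of 28 further IFT, BBSome and dynein-2 subunits, of which 21 were in the table and 18 passed the filter. None was called by edgeR, against 1.28% of all genes tested. At an unadjusted p below 0.05 there were 4, all lower in LRCs, against 9.53% of all genes. DESeq2 called 3, all lower in LRCs, against 6.15% of all genes. A fitted value below 0 was found in 16 of the 18, against 56.0% of all genes tested. The median was -0.61, beside -0.28 for the 34 genes above and -0.10 for all genes tested. Without experiment 2 it was -0.47. *Dynlrb1*, a light chain shared by both cytoplasmic dyneins, was at 38.6, 90.0 and 58.7 CPM in LRCs and 60.9, 165 and 95.5 CPM in non-LRCs. It was lower in LRCs by log2 differences of -0.66, -0.87 and -0.70, its groups overlapped, and its log2 fold change of -0.74 ± 0.14 (SE) had an adjusted p of 0.0737 in edgeR and 0.000547 in DESeq2 (0.000547 to 0.615 over all settings). *Wdr60*, an intermediate chain of dynein-2, was at 20.2, 18.4 and 26.3 CPM in LRCs and 34.8, 30.6 and 45.7 CPM in non-LRCs. Its groups did not overlap, and its log2 fold change of -0.77 ± 0.18 (SE) had an adjusted p of 0.108 in edgeR and 0.00788 in DESeq2 (0.00788 to 0.469 over all settings). DESeq2 also called *Dynll1*, another shared dynein light chain (adjusted p 0.0490), which is named after its value was seen.

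The transition zone is the gate at the base of the cilium. Of its 23 genes tested, 18 had a fitted value below 0, where 56.0% of all genes tested did. The median was -0.42 (-0.25 without experiment 2), and edgeR called none. At an unadjusted p below 0.05 there were 2 lower in LRCs, against 9.53% of all genes. DESeq2 called 1 lower in LRCs, against 6.15% of all genes. *Tmem107*, a membrane protein of that gate, was at 13.5, 10.8 and 18.3 CPM in LRCs and 27.6, 45.7 and 34.2 CPM in non-LRCs. These groups were clearly apart, and the log2 fold change of -1.33 ± 0.30 (SE) had an adjusted p of 0.0937 in edgeR and 0.00116 in DESeq2 (0.00116 to 0.264 over all settings). *Rpgrip1l*, a scaffold of the gate, had a log2 fold change of -1.30 ± 0.50 (SE) and an edgeR adjusted p of 0.250.

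Basal body and ciliogenesis genes, 32 of them tested, were near even, with a median of -0.05 (-0.04 without experiment 2). There were 19 below and 13 above 0, where 56.0% of all genes tested were below 0. None was called by edgeR. At an unadjusted p below 0.05 there were 2 lower in LRCs, against 9.53% of all genes. DESeq2 called 1 lower in LRCs, against 6.15% of all genes. *Rabl2*, a GTPase that recruits IFT to the base, had a log2 fold change of -0.98 ± 0.28 (SE), with an adjusted p of 0.148 in edgeR and 0.0244 in DESeq2. *Ehd3*, which shapes membrane at the young cilium, had one of -0.78 ± 0.29 (SE; edgeR adjusted p 0.228).

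**Figure D4:**
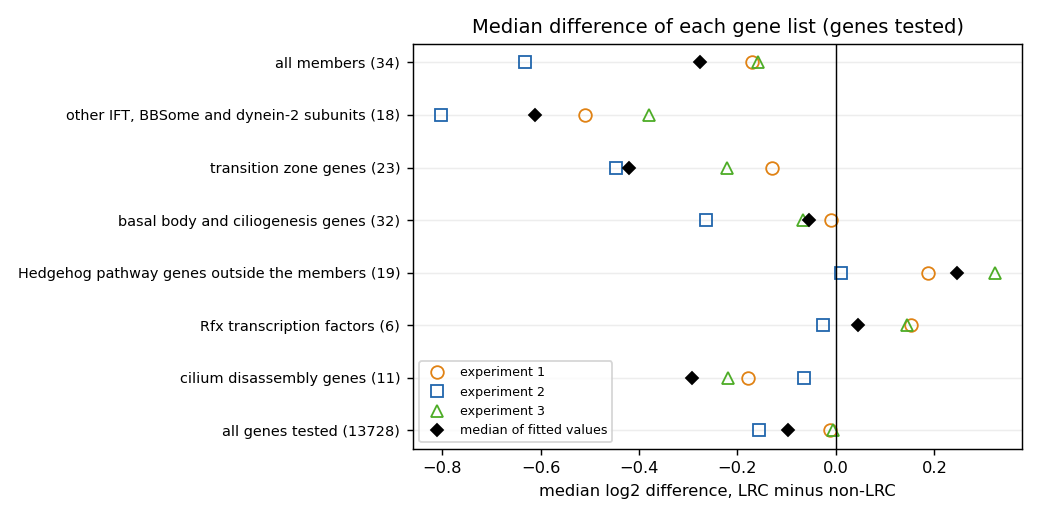
Median difference in log2 level between LRCs and non-LRCs for the cilium genes (all members) and 6 related gene lists, with the number of genes tested in brackets, open circles, squares and triangles for experiments 1, 2 and 3 and black diamonds for the median of the fitted log2 fold changes. The medians of the 34 cilium genes, the further IFT, BBSome and dynein-2 subunits and the transition zone genes are below those of all genes tested in each experiment, and the Hedgehog list is above.

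Of 19 Hedgehog genes outside the 36 that were tested, 12 had a fitted value above 0 and 7 below 0. Of all genes tested, 56.0% were below 0. At an unadjusted p below 0.05 there were 4 higher and 1 lower in LRCs. DESeq2 called 3 higher (*Gas1*, *Gli2* and *Hhip*) and 1 lower (*Ihh*, the ligand made by prehypertrophic chondrocytes). Over all genes, in either direction, 18.4% passed that unadjusted p, DESeq2 called 12.3% and edgeR called 1.28%. edgeR called 1, the co-receptor *Gas1*, at 111, 13.5 and 78.6 CPM in LRCs and 8.30, 2.59 and 3.56 CPM in non-LRCs (fitted log2 difference 3.56 ± 0.43 SE, edgeR adjusted p 0.0331). *Ptch1*, *Smo*, *Gli3* and *Gli1* had log2 fold changes of 0.26, 0.17, 0.03 and -1.36, and none was called by edgeR. The value of *Gli1* was -0.50 without experiment 2 and -2.21 without experiment 3.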

How the data were processed

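RNA of 3 LRC and 3 non-LRC libraries, amplified with a kit for picogram inputs and read as single-end sequences, was aligned by the authors to mm10 (GRCm38) with TopHat2 2.0.13 and Bowtie2 2.2.1 (versions from the submitters' processing notes). The deposited table holds raw counts per gene of unambiguously placed reads, made by the authors with HTSeq. The annotation and the strand setting are not given in the sources used here, so reads of overlapping genes are uncertain. The deposited normalised and rlog tables were not used.

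The analysis used edgeR 4.0.16 (R 4.3.3). Genes passed filterByExpr (minimum count 10, minimum total 15), libraries were scaled by TMM, and the quasi-likelihood test (prior count 0.125) used the experiment number as a block, since the study paired libraries by mouse of origin. Deviations from the group means of libraries with the same number correlated across genes with r of 0.197, 0.288 and 0.336. Within-experiment differences are of log2 CPM with a prior count of 2. DESeq2 1.42.0 and limma-voom (limma 3.58.1) with the same block were alternatives. On simulated counts with known fold changes, each fit with the block had a larger share of false calls than its threshold allows, most of all DESeq2, so calls made by DESeq2 alone are less certain. Exon lengths and positions came from GENCODE vM21 (GRCm38), with 20778 genes matched by current and 1913 by older symbol and 468 unmatched. The exon length of a gene is the union of the exons of all its annotated transcripts, so levels per kilobase depend on the transcripts annotated.

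Members and lists were chosen with earlier results of these data known. Values in every library were given for the 10 members with the smallest p, members known from growth plate or Hedgehog biology, the 3 highest and the 3 lowest tested, and those with 0 counts or failing the filter. In each list the genes called, or else the 2 with the smallest p, were named. With the block, p-values cover the spread between experiments of the difference between the paired pooled-cell libraries. Read counts without molecular identifiers give counting error only.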

Additional observations from a re-analysis of the deposited data

How the results depend on the processing

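The number of cilium genes called, 0, remained 0 with DESeq2 size factors, with no filter, with thinned libraries and with a correction for GC content and length (0.954% to 1.65% of all genes called). It became 2 with DESeq2 (12.3% of all genes), 2 with limma-voom (9.91%) and 1 (*Ift20*) with at least 10 counts in every library (6.75%), and leaving out each experiment gave 0 to 2, with the 2 (*Ift20* and *Arl3*) without experiment 2 (5.37%). DESeq2 with each experiment left out, chosen after seeing the data, called 0 to 3, the 3 being *Ift20*, *Arl3* and *Evc2* without experiment 2 (13.5% of all genes). Without the replicate block edgeR called 0 of the 34 and 1 gene in all. Genes higher in LRCs in every experiment numbered 2, or 1 with thinned libraries, and 3 to 6 when an experiment was left out. Those lower in every experiment were 13, 10 to 14 under the other settings on all 6 libraries, and 16 to 19 when only 2 experiments had to share a direction. Those with 1 direction throughout were 15, 12 to 16 and 19 to 23. The median stayed below 0 in all settings, from -0.38 to -0.12. With experiments left out in turn, signs turned within the ranges of *Arl13b* (-0.34 to 0.086), *Bbs2* (-0.31 to 0.20), *Bbs9* (-0.60 to 0.56), *Bbs12* (-0.028 to 0.23), *Dync2h1* (-0.78 to 0.24), *Evc* (-0.32 to 0.57), *Ift27* (-0.26 to 0.28), *Ift80* (-0.12 to 0.037), *Ift122* (-0.26 to 0.20), *Kif3b* (-0.041 to 0.51), *Wdr35* (-0.95 to 0.41) and, of the Hedgehog list, *Ptch1* (-0.11 to 0.48), *Smo* (-0.092 to 0.50) and *Gli3* (-0.14 to 0.25). They also turned with limma-voom for *Bbs2* (0.043), *Bbs9* (0.39), *Dync2h1* (0.066), *Ift122* (0.12), *Kif3b* (-0.058), *Wdr35* (0.22) and *Ptch1* (-0.0085), with the GC and length correction for *Dync2li1* (0.011), *Evc* (-0.099), *Ift74* (0.11), *Ift88* (0.12), *Smo* (-0.071) and *Gli3* (-0.19), and without the block for *Bbs9* (0.19) and *Ift122* (0.13). *Nedd9* was not called without the block, without experiment 1 or 3, or with that correction, with a log2 fold change of 0.86 to 0.93 in all settings. *Gas1* was not called without the block or without experiment 1. The cause was not tested. A count of 0 in the LRC library of experiment 2 allows up to 0.143 CPM, which limits what can be seen there.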

Other observations

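Most of the Rfx factors, whose motif the promoters were searched for, were transcribed in both groups. Of 8 genes 6 passed the filter, 3 with a fitted log2 fold change above and 3 below 0, where 56.0% of all genes tested were below 0. None was called by edgeR or DESeq2 or had an unadjusted p below 0.05, which 18.4% of all genes had. *Rfx5*, which is known for MHC class II genes rather than for cilia, was at 16.8, 11.1 and 11.2 CPM in LRCs and 9.50, 7.75 and 13.2 CPM in non-LRCs, with overlap and a log2 fold change of 0.37 ± 0.33 (SE). *Rfx8* was at most 2.62 CPM, and *Rfx6* was at 0 in all libraries.

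Of the 11 genes of cilium disassembly, 4 had a fitted value above 0 and 7 below it, where 56.0% of all genes tested were below 0. The same 1 was called by edgeR and by DESeq2, which called 1.28% and 12.3% of all genes. *Nedd9*, the scaffold that activates Aurora A when the cilium is taken down, was at 121, 92.1 and 139 CPM in LRCs and 64.4, 49.3 and 73.8 CPM in non-LRCs. Its groups did not overlap and its shift was nearly the same in each pair, by log2 differences of 0.91, 0.90 and 0.91 (log2 fold change 0.91 ± 0.14 SE, edgeR adjusted p 0.0489, DESeq2 adjusted p 1.65e-06, and 1.65e-06 to 0.341 over all settings). Of 15 cell cycle genes 13 had a fitted value below 0, where 56.0% of all genes tested did, and none was called by edgeR. At an unadjusted p below 0.05 there were 7, all lower in LRCs, against 9.53% of all genes. DESeq2 called 6, all lower in LRCs, against 6.15% of all genes. *Rrm2*, a ribonucleotide reductase subunit of S phase, had a log2 fold change of -1.11 ± 0.22 (SE; edgeR adjusted p 0.0807, DESeq2 adjusted p 0.000271), and *Ccna2*, a cyclin of S and G2 phase, one of -0.79 ± 0.19 (SE; edgeR adjusted p 0.107).

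The differences were also set against gene length. Across the 34 genes, which share the same libraries and are not independent replicates, Spearman's rho between exon length and the within-experiment difference was 0.448, 0.12 and 0.213 in experiments 1, 2 and 3, and over 13563 genes with a known length it was 0.210, 0.0206 and 0.245. *Ift20*, with 1525 bases of exon the shortest of the 36, and *Arl3*, with 2490, had log2 fold changes of -0.58 and -0.90 under the GC content and length correction (from -0.85 and -1.03; edgeR adjusted p 0.128 and 0.135). Under it *Arl6* went from -0.72 to -0.31 (edgeR adjusted p 0.559) and *Bbs5* from -0.53 to -0.13 (0.856).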
